A study of Mus musculus with 8 samples.

Results

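The 10 genes described here encode the signalling parts of the T cell receptor on CD8+ T cells and the surface molecules that work beside it. They comprise the 4 invariant chains of the receptor complex (*Cd3d*, *Cd3e*, *Cd3g* and *Cd247*), the 2 chains of the CD8 coreceptor (*Cd8a* and *Cd8b1*), 3 surface receptors that adjust the signal (*Cd2*, *Cd5* and *Cd6*), and *Trat1*, a small transmembrane adaptor that associates with the complex. They were chosen by gene symbol, and each was found once among the 22520 rows of the deposited expression table. The libraries came from mouse splenic CD8+ T cells that were isolated by magnetic negative selection and stimulated for 6 days with antibodies to CD3 and CD28 plus IL-2, a protocol used by the study to drive exhaustion. From day 3 the cultures received either 40 µM DADA (diisopropylamine dichloroacetate, an inhibitor of pyruvate dehydrogenase kinase) or the same volume of its solvent DMSO. Both groups had the same stimulation, and no genetic change is described, although the labels enter control and model under genotype. Each group had 4 libraries, called DMSO 1 to 4 and DADA 1 to 4 after the numbers in their labels. The study's methods list male C57BL/6J mice aged 6 to 8 weeks among its animals, without tying mice to libraries. The labels call the 4 samples of each group biological replicates but do not say whether they came from separate mice, so the p-values measure the spread between these libraries.

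The antigen-binding alpha and beta chains of the T cell receptor have almost no cytoplasmic tail and signal through the CD3 gamma, delta, epsilon and zeta chains, whose tails are phosphorylated by the kinase LCK and then bind ZAP70. CD8, a dimer of an alpha and a beta chain on most cytotoxic T cells, holds class I MHC molecules and brings LCK to the receptor. CD2 binds CD48 in mice and adds to adhesion and signalling, whereas CD5 and CD6 are scavenger receptors of one gene family that mostly dampen the signal.

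Expression was given as FPKM (fragments per kilobase of transcript, scaled by the mapped fragments of the library), so that levels of different genes can be set side by side per length. Library depth was not given as counts and was estimated from the step size of low values as 13790000 to 16290000 fragments in the DMSO libraries and 15400000 to 18950000 in the DADA libraries. The summed FPKM of a library was between 438299 and 456939. The cell type label was checked against marker genes. All 6 CD8+ T cell markers (*Cd3d*, *Cd3e*, *Cd3g*, *Cd8a*, *Cd8b1* and *Trac*) were above 1 FPKM in every library, with a sum of 934 to 954 in DMSO and 1103 to 1156 in DADA. All of these but *Trac* are among the genes described here, so the difference between these sums mostly restates the changes given below. Among the B cell markers, *Pax5* was at 0 and *Cd79a* and *Ms4a1* were below 1 FPKM throughout, although *Ighm* was at 88.5 to 97.1 FPKM and the 6 genes summed to 98.5 to 100.4 in DMSO and 91.0 to 95.7 in DADA. *Cd4*, *Foxp3* and *Cd40lg* stayed below 1 FPKM, and the list of 4 CD4+ T cell markers summed to 16.3 to 17.4 in DMSO and 15.3 to 15.8 in DADA through *Zbtb7b*. The myeloid markers *Csf1r* and *Adgre1* were at 0 and 5 of 6 were below 1 FPKM, with sums of 3.51 to 3.99 in DMSO and 5.15 to 5.72 in DADA through *Cd68*. The 3 gamma-delta T cell markers found of 4 summed to 2.54 to 2.69 in DMSO and 1.24 to 1.69 in DADA, and the 4 NK cell markers summed to 1.09 to 2.37 and 1.94 to 2.51, with *Ncr1*, *Klrb1c* and *Tyrobp* below 1 FPKM. The 4 dendritic and 3 erythroid markers were all below 1 FPKM, with sums of at most 0.257 and 0.241. The part of the differences in depth and in the marker sums of the other cell types in the results was not tested.

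DADA treatment was accompanied by modest increases in most transcripts of the receptor complex, a larger increase in *Cd2*, a decrease in *Cd5* and a mean of *Trat1* that was lower by a factor of 12.04, while *Cd6* did not pass the test. All 10 genes passed the filter of at least 1 FPKM in at least 4 libraries, and 9 were at or above 1 FPKM in all 8. With limma on log2(FPKM + 1), where a fold change understates that of low genes, 9 of the 10 had an adjusted p under 0.05, against a background of 66.2% of the 10666 genes tested. Of these, 7 were higher with DADA (background 30.9%) and 2 were lower (background 35.3%). For 8 of the 10 genes the ranges of the groups did not overlap, which held for 60.6% of all genes tested. The background was therefore high. The median size of the log2 fold change was 0.29 over the 10 genes and 0.21 over all genes tested. Over all genes with an adjusted p under 0.05 the median size was 0.31. The signed median was 0.22 over the 10 genes and -0.02 over all genes tested. In bulk RNA, fewer cells of one type and less RNA per cell cannot be told apart.

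**Figure D1:**
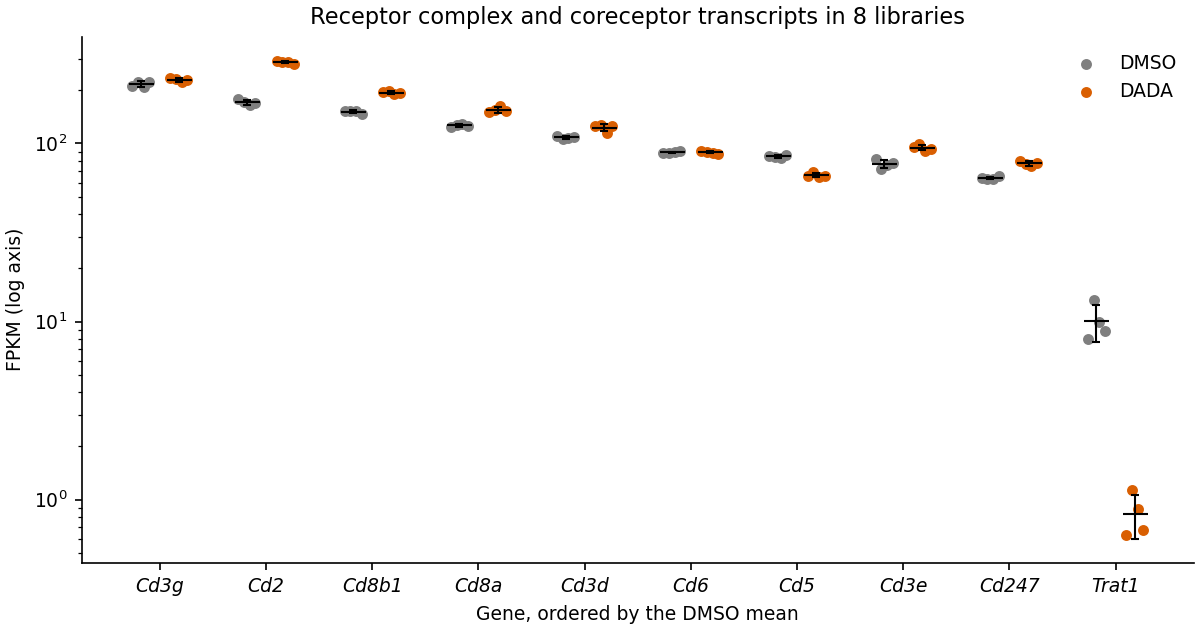
FPKM of the 10 genes in each library on a log axis, ordered by the DMSO mean. Points are libraries (4 DMSO, 4 DADA), horizontal bars are group means and error bars are 1 SD. *Cd2* separates upward (163.7 to 177 in DMSO, 281 to 291 in DADA), *Cd6* overlaps, and *Trat1* drops from 8.02 to 13.3 down to 0.631 to 1.14.

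The order of the levels changed between the groups. In DMSO-treated cells the mean FPKM ran from *Cd3g* (216 ± 7.24, SD, n = 4) through *Cd2* (170.3 ± 5.65), *Cd8b1* (151 ± 3.22), *Cd8a* (126 ± 1.93), *Cd3d* (108 ± 1.82), *Cd6* (89.1 ± 0.833), *Cd5* (84.5 ± 1.64), *Cd3e* (76.8 ± 3.97) and *Cd247* (64.0 ± 1.04) to *Trat1* (10.0 ± 2.31). In DADA-treated cells *Cd2* came first (287 ± 4.55), followed by *Cd3g* (227 ± 5.16), *Cd8b1* (193 ± 3.38), *Cd8a* (154 ± 5.44), *Cd3d* (123 ± 5.91), *Cd3e* (94.7 ± 3.34), *Cd6* (89.1 ± 1.17), *Cd247* (77.2 ± 2.28), *Cd5* (66.3 ± 1.62) and *Trat1* (0.832 ± 0.230). The ranges of neighbours in the order did not overlap in either group. *Cd2* thus passed *Cd3g*, and *Cd5* moved from above *Cd3e* and *Cd247* to below both. The closest neighbours were *Cd6* and *Cd5* in DMSO, whose means differed 1.05-fold, and *Cd3e* and *Cd6* in DADA, at 1.06-fold. Replicate spread was small for 9 of the genes, with coefficients of variation between 0.935% and 5.17%, and larger for *Trat1* at 23.1% in DMSO and 27.7% in DADA. Across all 5880 genes averaging 10 FPKM or more, the median was 3.54% in DMSO and 3.47% in DADA.

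The CD3 chains are described first. *Cd3e*, *Cd3d* and *Cd3g* lie close together on mouse chromosome 9, and *Cd3d* and *Cd3g* are read in opposite directions from starts 1355 bases apart. The 250 bases before each start are shown as a description, and their part in the size of the changes was not tested. They were taken from RefSeq on build GRCm38.p6, are given 5′ to 3′ on the gene's own strand, and have matches to the searched motifs in capitals. The *Cd3e* window is chr9:45009612-45009861 (minus strand), that of *Cd3d* is chr9:44981536-44981785 (plus strand) and that of *Cd3g* is chr9:44980432-44980681 (minus strand).
Cd3e: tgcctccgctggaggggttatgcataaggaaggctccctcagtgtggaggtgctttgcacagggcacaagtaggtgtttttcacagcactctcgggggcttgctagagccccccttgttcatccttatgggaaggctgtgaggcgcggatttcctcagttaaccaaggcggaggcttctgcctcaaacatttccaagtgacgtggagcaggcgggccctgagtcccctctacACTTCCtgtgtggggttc
Cd3d: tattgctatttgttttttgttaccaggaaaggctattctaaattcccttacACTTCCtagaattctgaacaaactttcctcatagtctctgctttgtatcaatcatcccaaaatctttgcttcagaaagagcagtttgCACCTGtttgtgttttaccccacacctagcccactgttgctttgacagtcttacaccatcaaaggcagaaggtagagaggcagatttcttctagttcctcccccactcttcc
Cd3g: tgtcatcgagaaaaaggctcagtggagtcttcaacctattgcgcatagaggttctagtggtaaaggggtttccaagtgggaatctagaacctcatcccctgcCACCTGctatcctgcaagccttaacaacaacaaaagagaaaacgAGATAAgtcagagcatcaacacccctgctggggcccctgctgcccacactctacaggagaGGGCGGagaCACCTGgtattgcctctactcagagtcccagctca
In *Cd3e* the capitals mark ACTTCC, the reverse complement of the ETS core GGAAGT. *Cd3d* holds the same ETS match and an E protein match, CACCTG. *Cd3g* holds the E protein letters 2 times, and it also holds a GC box with the letters GGGCGG. The letters AGATAA, which are those of the GATA motif, occur there as well, and the ETS letters do not. Counting both strands, 19.7% of the 32851 windows of the table hold the ETS letters, 17.2% those of the E proteins, 9.99% those of GATA and 32.7% the GC box. These matches are letters in a window and were not measured as binding.

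CD3 epsilon pairs with the gamma or the delta chain and is the chain bound by most activating CD3 antibodies. *Cd3e* (ENSMUSG00000032093) was at 81.5, 72.0, 76.0 and 77.7 FPKM in DMSO 1 to 4 and at 94.97, 99.1, 91.1 and 93.6 in DADA 1 to 4. Every DADA library was above every DMSO library, and the log2 fold change was 0.30 (SE 0.0394, 95% interval 0.21 to 0.39, limma adjusted p = 8.00e-05). *Cd3d* (ENSMUSG00000032094), the delta chain, was at 110.5, 106, 108 and 109 FPKM in DMSO and at 125, 126, 114 and 126 in DADA. The groups again did not overlap, with DADA 3 nearest to the DMSO values, and the log2 fold change was 0.18 (SE 0.0340, 95% interval 0.10 to 0.25, limma adjusted p = 0.00105). For both genes the exact two-sided permutation test over the 70 assignments of 8 libraries gave p = 0.0286, the smallest this design allows.

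*Cd3g* (ENSMUSG00000002033), the gamma chain, was the most abundant of the CD3 transcripts and moved least. It was at 211, 222, 208 and 222 FPKM in DMSO and at 232, 229, 220.1 and 229 in DADA. DADA 3 lay below DMSO 2 and DMSO 4, so the groups overlapped. The log2 fold change was 0.08 (SE 0.0283, 95% interval 0.01 to 0.14), with a limma adjusted p of 0.0376 and an exact permutation p of 0.0857. This call was the least secure of the 9. It was lost without the filter on low values (adjusted p = 0.0541), with quantile normalization (0.318), without the mean-variance trend (0.0775), and when DMSO 1 (0.0902), DMSO 3 (0.106), DADA 1 (0.0965), DADA 2 (0.0735) or DADA 4 (0.0782) was left out. Of all genes tested, 80.1% had a larger log2 fold change in either direction.

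CD3 zeta, encoded by *Cd247* (ENSMUSG00000005763) on chromosome 1, forms a homodimer with the longest cytoplasmic tails of the complex. *Cd247* was the least abundant of the 4 chains, at 63.9, 63.2, 63.5 and 65.5 FPKM in DMSO and at 80.1, 76.5, 74.7 and 77.4 in DADA. The lowest DADA library was above the highest DMSO library. The log2 fold change was 0.27 (SE 0.0262, 95% interval 0.21 to 0.32, limma adjusted p = 9.99e-06, exact permutation p = 0.0286).

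The 4 chains summed to 467, 464, 456 and 474 FPKM in DMSO and to 532, 531, 499.9 and 526 in DADA, a ratio of the means of 1.12. Ratios within a library do not depend on the scaling between libraries. The balance of the chains was therefore tested as 7 log2 ratios, with an exact two-sided permutation test each and Benjamini-Hochberg adjustment over the 7. The ratios are built from the same values as the fold changes of the single genes and are not separate support. An exact permutation p of 0.0286 is the smallest this design allows. *Cd3g* relative to the geometric mean of the other 3 chains was 2.66 ± 0.131 in DMSO and 2.36 ± 0.0307 in DADA (log2 difference -0.17, exact p = 0.0286, adjusted p = 0.04, n = 4 per group). The same ratio was 0.671 ± 0.0342 and 0.733 ± 0.0209 for *Cd3e* (log2 difference 0.13, exact p = 0.0286, adjusted p = 0.04). For *Cd247* it was 0.527 ± 0.00762 and 0.558 ± 0.0144 (log2 difference 0.08, exact p = 0.0286, adjusted p = 0.04). In these 3 ratios the groups did not overlap. *Cd3d* did not pass, at 1.06 ± 0.0148 and 1.04 ± 0.0293 (log2 difference -0.04, exact p = 0.171, adjusted p = 0.171). The gamma chain therefore made up a smaller part of the CD3 transcripts in DADA-treated cells, 43.6% against 46.4% of the sum, and the epsilon and zeta chains a larger part, 18.1% against 16.5% and 14.8% against 13.8%. The 4 ratios share genes, so a higher value of one lowers the others.

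**Figure D2:**
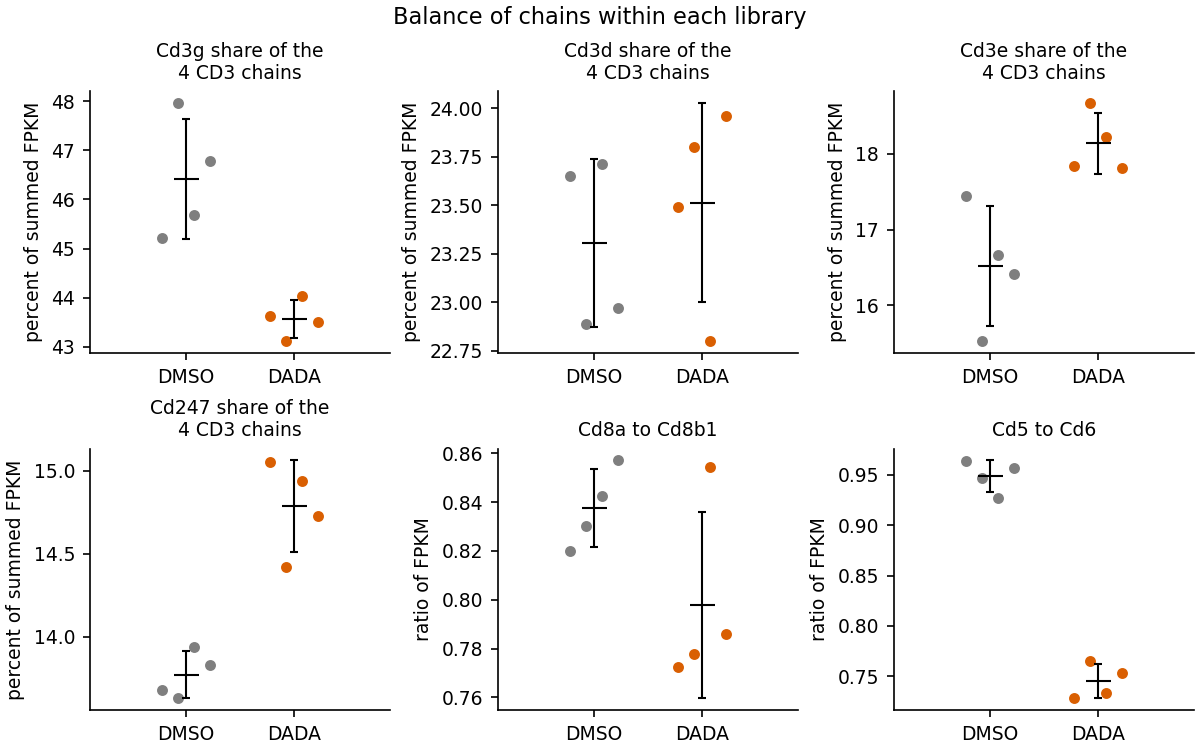
Shares of each CD3 chain in the FPKM summed over the 4 chains, and the ratios *Cd8a* to *Cd8b1* and *Cd5* to *Cd6*, in each library (4 DMSO in grey, 4 DADA in orange). Horizontal bars are means, error bars are 1 SD and the axes do not start at 0. The *Cd3g* share and the *Cd5* to *Cd6* ratio fall without overlap (0.927 to 0.964 in DMSO and 0.729 to 0.765 in DADA for the latter), and DADA 3 stands apart in *Cd8a* to *Cd8b1* at 0.854.

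The antigen-binding chains, which the CD3 chains accompany to the surface, did not follow them as one. The alpha chain constant gene *Trac* was at 274, 253.5, 267 and 275 FPKM in DMSO and at 307.5, 351, 344 and 356 in DADA, without overlap (log2 fold change 0.34, SE 0.0461, limma adjusted p = 9.60e-05). The beta chain constant genes went the other way by a small amount. *Trbc2* was at 560 ± 6.46 in DMSO and 527 ± 15.6 in DADA (log2 fold change -0.09, SE 0.0243, limma adjusted p = 0.0103), a call lost when libraries were rescaled to the same total (adjusted p = 0.0540) and with quantile normalization (0.608). *Trbc1* was at 386.5 ± 7.91 and 369 ± 10.7 with overlapping groups (log2 fold change -0.07, SE 0.0259, limma adjusted p = 0.0399), and kept its call under 4 of 16 alternatives. Leaving out DMSO 1, DMSO 2, DMSO 3, DADA 1, DADA 2 or DADA 3 each ended the call of *Trbc1* (adjusted p between 0.0522 and 0.107). *Trbc1* and *Trbc2* are near-identical copies, so reads may have been shared between them, and their sum was 946 ± 3.91 in DMSO and 896 ± 17.1 in DADA. The ratio of *Trac* to that sum was 0.283 ± 0.00959 and 0.379 ± 0.0247, a ratio chosen after its parts were seen and given without a test.

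The variable gene segments were summed after the data were seen and are given as a description. The 108 *Trav* rows of the table, 99 of them at 1 FPKM or more in some library, summed to 267 ± 3.89 FPKM in DMSO and 301 ± 4.37 in DADA. The 22 *Trbv* rows summed to 570.1 ± 15.4 and 579 ± 8.29, with overlapping groups. *Trav16n*, the most abundant *Trav* row, held 3.69% of the *Trav* sum in DMSO and 4.06% in DADA, and *Trbv29* held 10.8% and 10.6% of the *Trbv* sum. Segments of one family share sequence, and how reads were divided among them is not known. Of the remaining genes of the list of T cell receptor chains, *Fcer1g*, which encodes a zeta-like Fc receptor chain, was at 1.63 and 1.58 FPKM (adjusted p = 0.920). *Trdc* at 1.07 and 0.797, *Cd4* at 0.283 and 0.213, and *Ptcra*, at 0 in all libraries but DMSO 2, were too low to be tested. The names *Trgc1*, *Trgc2* and *Trgc4* were matched to no row, and the gamma chain row *Tcrg-C1*, a marker outside this list, is given under other observations. In all, 3 of 4 tested genes of the list passed, 1 higher and 2 lower, with a median log2 fold change of -0.04. Over all genes tested 66.2% passed, 30.9% higher and 35.3% lower. Only 1 gene of the list passed when libraries were rescaled to the same total, and also only 1 with quantile normalization.

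**Figure D3:**
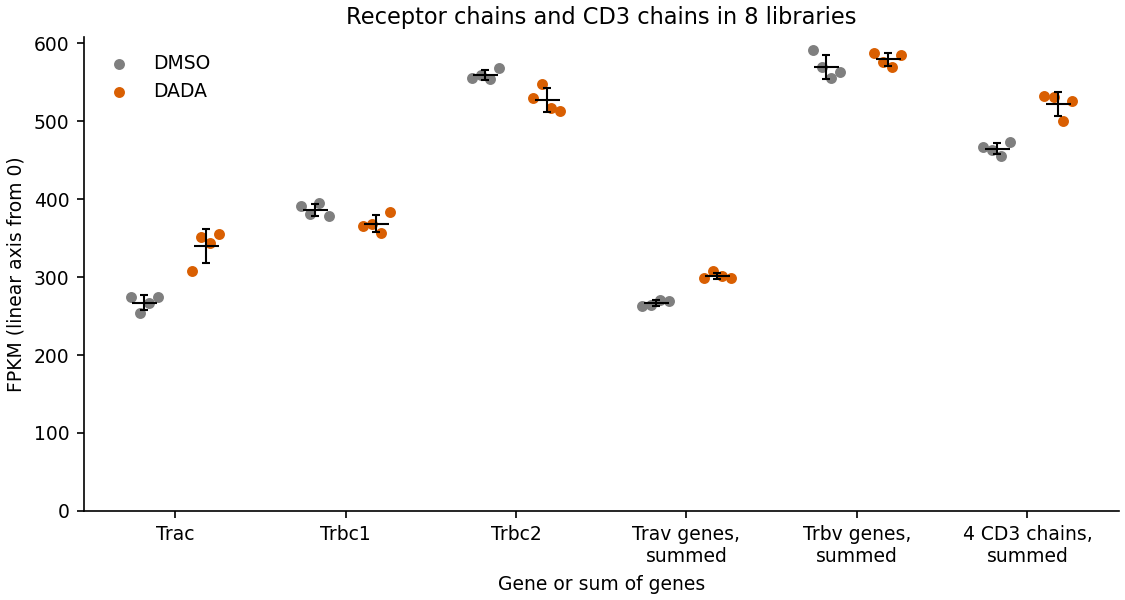
FPKM of the constant-region genes of the T cell receptor, of the summed *Trav* and *Trbv* segments and of the 4 summed CD3 chains, on a linear axis from 0. Points are libraries (4 DMSO, 4 DADA), horizontal bars are means and error bars are 1 SD. *Trac*, the *Trav* sum and the CD3 sum are higher with DADA in all libraries, *Trbc2* is lower in all, and *Trbc1* and the *Trbv* sum overlap.

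Both chains of the CD8 coreceptor rose. *Cd8b1* (ENSMUSG00000053044), the beta chain that confers efficient coreceptor function, was at 152, 153, 153 and 146 FPKM in DMSO and at 193.5, 197.5, 189 and 192 in DADA. *Cd8a* (ENSMUSG00000053977), the alpha chain that binds LCK, was at 124, 127, 129 and 125 FPKM in DMSO and at 149.5, 154, 162 and 151 in DADA. For both genes every DADA library exceeded every DMSO library. The log2 fold change was 0.35 for *Cd8b1* (SE 0.0229, 95% interval 0.30 to 0.41, limma adjusted p = 4.29e-07) and 0.28 for *Cd8a* (SE 0.0273, 95% interval 0.22 to 0.34, limma adjusted p = 8.39e-06), each with an exact permutation p of 0.0286. The ratio of *Cd8a* to *Cd8b1* was 0.837 ± 0.0160 in DMSO and 0.798 ± 0.0380 in DADA, and the difference of -0.07 on the log2 scale did not pass (exact p = 0.114, adjusted p = 0.133, n = 4 per group). DADA 3, with a ratio of 0.854, lay within the DMSO range, and the other 3 DADA libraries lay between 0.773 and 0.786, below all DMSO libraries. In sum the CD8 chains were at 277 ± 4.52 FPKM in DMSO and 347 ± 4.59 in DADA, a ratio of 1.25 beside 1.12 for the CD3 chains.

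*Cd2* (ENSMUSG00000027863), the adhesion and costimulatory receptor for CD48, had the largest increase of the 10 genes. It was at 177, 171, 163.7 and 169 FPKM in DMSO and at 291, 288.5, 288 and 281 in DADA. The groups were far apart relative to their spread, with a 1.69-fold ratio of the means and a log2 fold change of 0.75 (SE 0.0265, 95% interval 0.69 to 0.81, limma adjusted p = 5.42e-09, exact permutation p = 0.0286). Of all genes tested, 6.92% had a larger log2 fold change in either direction.

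*Cd5* (ENSMUSG00000024669), an inhibitory receptor of the scavenger receptor family, fell, while its relative *Cd6* did not pass the test. *Cd5* was at 85.6, 83.5, 82.8 and 86.3 FPKM in DMSO and at 65.7, 68.7, 65.0 and 66.0 in DADA. All DADA libraries were below all DMSO libraries (log2 fold change -0.34, SE 0.0251, 95% interval -0.40 to -0.29, limma adjusted p = 1.03e-06, exact permutation p = 0.0286). *Cd6* (ENSMUSG00000024670), a receptor for ALCAM, was at 88.8, 88.2, 89.3 and 90.2 FPKM in DMSO and at 90.1, 89.9, 88.7 and 87.6 in DADA. The groups overlapped and the 95% interval of the log2 fold change ran from -0.05 to 0.04 (limma adjusted p = 0.974, exact permutation p = 0.914). With quantile normalization *Cd6* had a log2 fold change of 0.06 and an adjusted p of 0.0225, so its direction depended on the scaling. The ratio of *Cd5* to *Cd6* was 0.949 ± 0.0159 in DMSO and 0.745 ± 0.0169 in DADA (log2 difference -0.35, exact p = 0.0286, adjusted p = 0.04 over the 7 ratios, n = 4 per group). It restates the values of its parts and is not separate support.

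*Trat1* (ENSMUSG00000030775), also known as TRIM, is a transmembrane adaptor that associates with the zeta chain. It was at 8.02, 13.3, 9.93 and 8.82 FPKM in DMSO and at 0.631, 1.14, 0.884 and 0.677 in DADA. The lowest DMSO library was several times the highest DADA library. The log2 fold change of FPKM + 1 was -2.57 (SE 0.139, 95% interval -2.89 to -2.26, limma adjusted p = 1.18e-07, exact permutation p = 0.0286), and 2 of the 10666 genes tested fell further. Without the pseudocount, the log2 ratio of the mean FPKM was -3.59, a scale added after the data were seen. *Trat1* passed the filter through the 4 DMSO libraries and DADA 2, and the DMSO libraries alone met it. Its place among the genes tested thus rested on the group where it was high. No conclusion is therefore drawn from the limma adjusted p of 1.18e-07. Without the filter on low values, the limma adjusted p was 2.52e-06. At the estimated depths its DADA values stood for about 7.34 to 13.4 fragments per library if all came from its shortest annotated transcript of 647 bases, and for 52.9 to 96.2 if all came from its longest of 4665 bases. Relative to the geometric mean of the 4 CD3 chains, *Trat1* was at 0.0970 ± 0.0239 in DMSO and 0.00697 ± 0.00193 in DADA (log2 difference -3.81, exact p = 0.0286, adjusted p = 0.04, n = 4 per group). With a pseudocount of 1 in the ratio, the log2 difference was -2.78. This ratio restates the changes of its parts given above and is not separate support. In these libraries the values of *Trat1* fell while those of the chains it associates with rose.

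**Figure D4:**
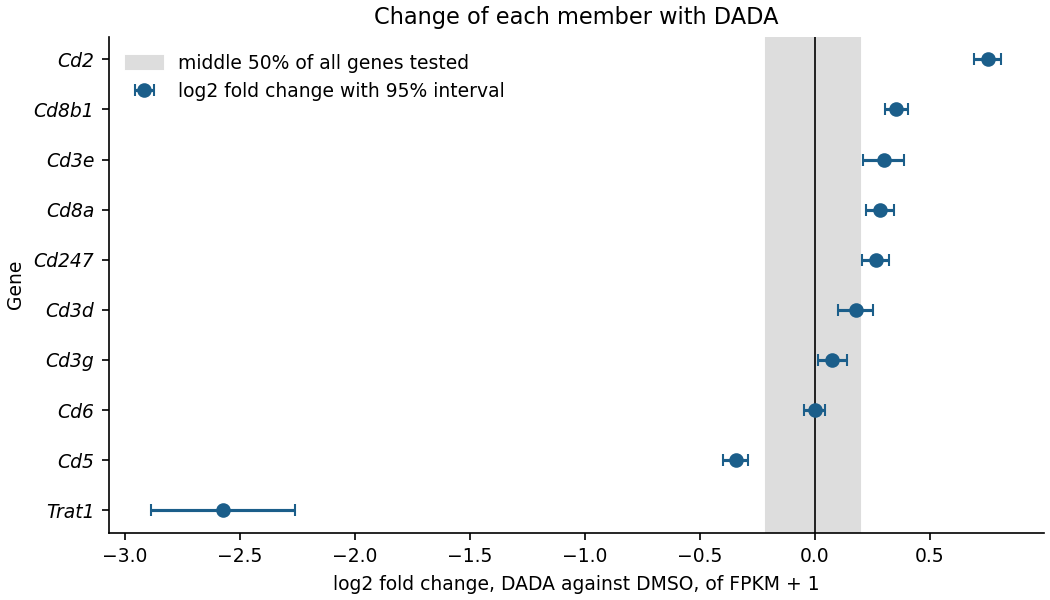
Log2 fold change of FPKM + 1, DADA against DMSO, of each of the 10 genes with its 95% interval from limma (4 libraries per group). The grey band, from -0.21 to 0.20, holds the middle 50% of all 10666 genes tested. *Cd3d*, *Cd3g* and *Cd6* lie inside the band, 5 genes lie above it, and *Cd5* and *Trat1* lie below it.

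The windows before the starts of the 2 genes that fell are shown next, for comparison with the CD3 windows above. *Trat1* starts on chromosome 16 (window chr16:48772063-48772312, minus strand) and *Cd5* on chromosome 19 (window chr19:10738975-10739224, minus strand), on the same build and with the same meaning of capitals.
Trat1: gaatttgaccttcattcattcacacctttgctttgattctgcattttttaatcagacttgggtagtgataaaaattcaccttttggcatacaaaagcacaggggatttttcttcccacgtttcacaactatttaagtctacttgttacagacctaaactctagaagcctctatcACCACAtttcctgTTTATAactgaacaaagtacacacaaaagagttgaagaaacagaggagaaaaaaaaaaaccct
Cd5: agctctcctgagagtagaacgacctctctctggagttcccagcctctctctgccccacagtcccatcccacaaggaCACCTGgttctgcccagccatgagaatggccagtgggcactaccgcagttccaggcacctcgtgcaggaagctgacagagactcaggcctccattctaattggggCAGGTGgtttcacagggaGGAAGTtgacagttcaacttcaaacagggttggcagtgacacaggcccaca
*Trat1* holds a RUNX match (ACCACA, in 14% of all windows) and, as TTTATA, the reverse complement of the TATA box letters TATAAA (12.4%). *Cd5* holds an ETS match, GGAAGT, and the E protein letters on both strands, as CACCTG and CAGGTG. The GC content was lowest in *Trat1* (35.2%) and highest in *Cd3e* (57.2%) among the 7 genes with a window. *Cd247*, with an ETS and an E protein match, and *Cd8a*, with no match, are the other 2. The letters searched for AP-1 (TGANTCA, in 6.75% of all windows), NFAT (GGAAAA, 20.4%) and the ISRE core (2.98%) occurred in none of the 7. *Cd8b1*, *Cd2* and *Cd6* were not in the table.

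The genes around the receptor were read as 5 lists, of which 51 genes were tested, 25 rose and 11 fell. This share, 70.6%, was near the background of 66.2%. None of the 6 transmembrane adaptors related to *Trat1* had a decrease as large as that of *Trat1*. *Pag1*, which recruits the inhibitory kinase CSK, went from 3.99 to 2.95 FPKM (log2 fold change -0.34, adjusted p = 7.49e-05) and *Sit1*, an adaptor that binds SHP2, from 9.25 to 6.79 (-0.39, adjusted p = 0.00273). *Lime1*, an adaptor that binds LCK, rose from 12.9 to 18.2 (0.48, adjusted p = 1.21e-04). The other 3 of 6 did not pass, among them *Lat*, the central scaffold of the pathway, at 187 and 181 FPKM, and the median was -0.06.

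Of the kinases and adaptors next to the receptor, 19 of 20 were tested, 10 rose, 4 fell and the median log2 fold change was 0.10. The share that passed was 73.7%, against 66.2% of all genes tested (30.9% higher and 35.3% lower). *Themis*, an adaptor that sets the signalling threshold in thymocytes, rose from 26.3 to 60.3 FPKM (log2 fold change 1.17, limma adjusted p = 2.06e-10), and *Tec*, a tyrosine kinase, rose from 4.14 to 9.38 (1.01, adjusted p = 5.58e-08). *Lcp2*, which encodes the scaffold SLP-76, fell from 117 to 85.0 (-0.45, adjusted p = 1.02e-07). Genes of this list thus moved both ways, as *Themis* and *Lcp2* show.

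Of the negative regulators and genes of receptor turnover, 14 of 15 were tested, 7 rose, 3 fell and the median was 0.10. Here 71.4% passed, against 66.2% of all genes tested (30.9% higher and 35.3% lower). *Ubash3b*, a phosphatase that acts on ZAP70, rose from 4.36 to 6.85 FPKM (log2 fold change 0.55, adjusted p = 9.72e-06) and *Cblb*, a ubiquitin ligase that restrains activation, from 69.4 to 97.9 (0.49, adjusted p = 2.75e-08). *Sla2*, an adaptor that inhibits receptor signalling, fell from 17.5 to 11.7 (-0.54, adjusted p = 3.57e-07) and *Dok2* from 24.6 to 18.7 (-0.38, adjusted p = 5.94e-05). Genes of this list thus moved both ways.

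The ligands and adaptors of CD2, CD5, CD6 and CD8 had the highest median, 0.36. Over all genes tested 66.2% passed and 30.9% were higher, and of the 8 tested genes of this list 6 were higher. The other 2, *Cd2ap* at -0.07 (adjusted p = 0.163) and *Cd2bp2* at -0.05 (adjusted p = 0.614), did not pass. *Pstpip1*, which binds the cytoplasmic tail of CD2, rose from 39.2 to 106 FPKM (log2 fold change 1.42, limma adjusted p = 1.05e-10), in the same direction as *Cd2*. *Alcam*, the ligand of CD6, rose from 14.6 to 21.3 (0.52, adjusted p = 3.69e-04) while *Cd6* itself did not pass. This list includes class I MHC genes, among which *H2-K1* (log2 fold change 0.31) and *H2-D1* (0.33) count among the 6 higher genes. *H2-K1* and *H2-D1* are close copies with uncertain read assignment.

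**Figure D5:**
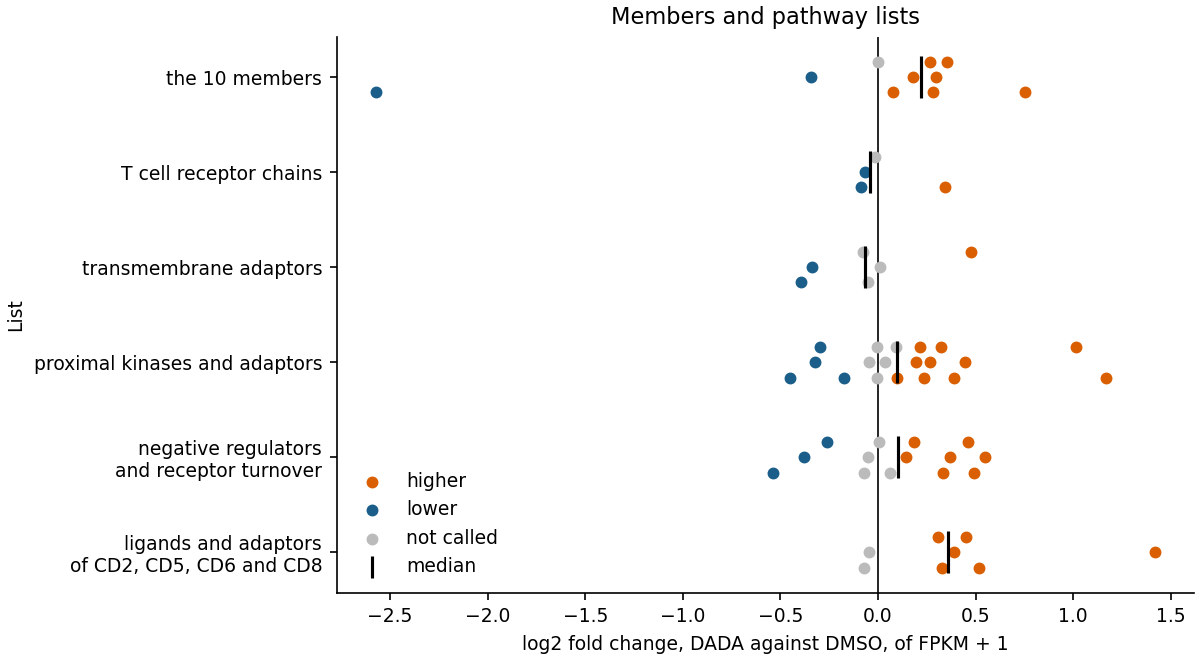
Log2 fold change of FPKM + 1, DADA against DMSO, of the 10 genes and of the tested genes of 5 lists around the receptor. Each point is a gene (orange higher, blue lower, grey not called at an adjusted p under 0.05 in limma) and black bars are medians, which range from -0.06 for the transmembrane adaptors to 0.36 for the ligands and adaptors of CD2, CD5, CD6 and CD8. *Trat1*, at -2.57, is farther from 0 than any listed gene.

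Genes with the most similar profile were sought for 4 of the genes, as the smallest Euclidean distance between centred log2(FPKM + 1) values over the 8 libraries among 8178 genes. Nearest to *Trat1* were *Lag3*, an inhibitory receptor (distance 0.608, 169 to 29.6 FPKM), *Cox6a2*, a cytochrome oxidase subunit (0.661, 56.0 to 7.23), and *Csf2*, the cytokine GM-CSF (0.751, 83.1 to 16.4). Nearest to *Cd3e* were *Ubl7* (0.0775), *Ergic3* (0.0824) and *Zgpat* (0.0987), and nearest to *Cd8a* were *Crybg1* (0.0581), *Arap2* (0.0704) and *Btbd7* (0.0741). Nearest to *Cd5* were *Got2*, the mitochondrial aspartate aminotransferase (0.0455), *Mrpl37*, a protein of the mitochondrial ribosome (0.0614), and *Cks1b*, a cell cycle regulator (0.0670). The distances found for *Trat1* were larger than those found for the other 3. All genes were compared over the same 8 libraries in 2 groups, and the distances are given without a test.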

How the data were processed

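Per the study's methods, total RNA was extracted from the cultures, made into libraries with an mRNA kit and sequenced as paired reads. The deposited values are FPKM per gene for the 8 samples, in 1 table with a column for each sample named as its title. Per the submitters' processing notes, the authors' tools included CASAVA 1.8.2, FastQC 0.11.9, HISAT2 2.0.5, StringTie 1.3.3, Picard 1.41 and SAMtools 0.1.18. The notes list the builds GRCm39 and GRCh38 without a role, and whether counting used the strand is not given in the sources used here. The table held 22520 rows, and 476 rows without a symbol, the constant-region genes among them, were named by gene ID. No read counts were used. Depth was estimated from the steps of low FPKM values, where 36.4% to 43.5% of values per library lay near whole fragments (tolerance 0.1 fragments, 20% by chance), so no count test was run.

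Genes with at least 1 FPKM in at least 4 libraries (10666) were tested on log2(FPKM + 1) with limma 3.58.1 in R 4.3.3 (mean-variance trend, Benjamini-Hochberg adjustment over all genes tested, threshold 0.05) without covariates. On simulated data with 200 changed genes, this test recovered 52% of log2 changes of 0.25, 78% of 0.5, 98% of 1 and all of 2, with 8 false among 172 calls. The simulation changed 200 of 10666 genes, whereas 66.2% were called in the data, so these shares need not hold for the data. Ratios within a library were tested by exact two-sided permutation. Promoter windows and motifs came from the RefSeq table on GRCm38.p6, which held 7 of the 10 genes, and no coordinate was taken from the expression table.

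The 10 genes and the lists were chosen with earlier results of these data known. Named beside the 10 genes were, from each list, the 2 called genes with the largest change in each direction, every gene of the list of T cell receptor chains, and the 3 nearest profiles of *Trat1*, *Cd3e*, *Cd8a* and *Cd5*. A gene that this rule names and a marker gene are not reported here. *Lat*, *Cd2ap*, *Cd2bp2*, *H2-K1* and *H2-D1* were named after their values were seen. The alternatives tried were another pseudocount, 2 other filters, 3 scalings, no trend, a replicate block and leaving out each library. Figures were drawn with matplotlib 3.10.9.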

Additional observations from a re-analysis of the deposited data

Results flagged for a closer look

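Among 70 groups of 4 values looked at with Dixon's test for a library far from the other 3, 4 exceeded its 95% point, and chance at 1 in 20 would give 3.5. *Cd3d* in DADA had a gap of 0.897 of the range, since DADA 3 was at 114 FPKM and the others between 125 and 126. *Cd8b1* in DMSO had a gap of 0.838, with DMSO 4 at 146 FPKM and the others between 152 and 153. The ratio of *Cd8a* to *Cd8b1* in DADA had a gap of 0.834, with DADA 3 at 0.854 and the others between 0.773 and 0.786. The ratio of *Cd247* to the other CD3 chains in DMSO had a gap of 0.897, with DMSO 1 at 0.516 and the others between 0.530 and 0.531. The library DADA 3 appears in 2 of the 4, and no cause was tested.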

How the results depend on the processing

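Of 654 values of 43 results recomputed under the alternatives, 22 kept their direction but missed the threshold, 3 moved beyond the limits set and 1 was a called value of the opposite sign. The other 628 did none of these. They include values with no test, counts within 1.5 times the main count, and values of *Cd6* and *Fcer1g* that changed sign without passing the threshold. The replicate block leaves each fold change and each ratio difference unchanged by construction, so its values for the ratios could not have differed. Between 8 and 9 of the 10 genes passed, 6 to 7 of them higher and 2 lower, while 5741 to 7868 genes passed over all genes tested. *Cd3g* kept its direction but missed the threshold without the filter on low values (0.0755), with quantile normalization (0.0409), without the trend (0.0755) and without DMSO 1, DMSO 3, DADA 1, DADA 2 or DADA 4. Over the 8 fits that each left out 1 library, the log2 fold change of *Cd3g* was between 0.0582 and 0.0910. *Cd6* turned to 0.0599 under quantile normalization, and to 0.0309 with libraries rescaled to the same total and 0.0199 with median-ratio scaling, both short of the threshold. The list of T cell receptor chains had 1 called gene when libraries were rescaled to the same total and 1 with quantile normalization, against 3, because *Trbc1* and *Trbc2* lost their calls. For *Trat1*, the log2 ratio of means without a pseudocount, added after seeing the data, was -3.59. The median log2 fold change of all genes tested lay between -0.05 and 0.01 over the settings, and the share of calls that were higher between 42.2% and 51.6%. No sign of pairing by replicate number was seen, with correlations of same-numbered deviations of 0.0953, -0.12, -0.0877 and 0.0751. Whether same-numbered cultures shared an origin is not known. With the replicate block 6995 genes passed against 7064, and the 10 genes kept 9 calls. Leaving out a library left 3 against 4, too few for an exact p under 0.05, so the ratios were then given as values, and all 7 kept their direction. FPKM without read counts leaves counting error unknown, which bears most on *Trat1* with DADA.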

Other observations

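A few low genes of the lists and markers were singled out after their values were seen. The gamma-delta chain gene *Tcrg-C1* was at 1.27 to 1.66 FPKM in DMSO and at 0.240 to 0.839 in DADA, so that the groups did not overlap (log2 fold change -0.60, limma adjusted p = 0.00176). *Tcrg-C1* passed the filter on low values only through the 4 DMSO libraries and was picked by its values, so no conclusion is drawn from this p. *Rnf128* and *Syk* did not pass the filter on low values and were not tested. *Rnf128*, a ubiquitin ligase linked to T cell anergy, was at 0.0357 ± 0.0286 FPKM in DMSO and 0.336 ± 0.118 in DADA (SD, n = 4), again without overlap. *Syk*, the relative of ZAP70 found mostly in B cells, was at 0.0342 and 0.0308 FPKM.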
